A study of Mus musculus with 30 samples.

Results

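Plvap, Esm1, Apln, Aplnr, Cxcr4, Adm, Prss23 and Mcam are 8 genes that have been linked to endothelial tip cells, to fenestrated or permeable vessels, or to both. They were taken by name, and all 8 of 8 were found among the 21847 protein-coding genes (54393 genes in all) measured in 14 RNA-seq libraries. Transcript levels of brain endothelial cells (ECs) were compared between freshly sorted cells and 8-day primary cultures, and between cultures of WT ECs and of ECs in which beta-catenin had been stabilized. Open chromatin at the same genes was read from 10 ATAC-seq libraries.

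The 2 acute EC libraries came from GFP-positive cells sorted from the brains of adult male Tie2-GFP mice, a line in which GFP marks ECs, and the 2 GFP-negative libraries came from cells without GFP sorted from brains of the same line. In both, cerebrum and cerebellum were combined. The 6 WT cultures (replicates 1 to 6) were grown from adult male brains in 3 experiments of 2 wells each. Replicates 1 and 2 came from C57BL/6J mice by isolation method A, a papain digest. Replicates 3 to 6 came from Ctnnb1flex3/+;Tie2-GFP mice by method B, which breaks the tissue in a Dounce homogenizer before a collagenase digest. The methods assignment and the strain labels were followed here, although a figure legend of the study places only the WT pair sequenced at another facility (replicates 3 and 4) under method B. If replicates 5 and 6 were isolated by method A, the values given below for method B would set WT wells of one method against stabilized wells of the other. The 4 stabilized cultures came from Ctnnb1flex3/+;Pdgfb-CreER;Tie2-GFP mice in 2 experiments, replicates 1 and 2 by method A and replicates 3 and 4 by method B. In these mice Pdgfb-CreER, which is active in ECs, removes an exon of 1 Ctnnb1 allele after 4-hydroxytamoxifen (4HT) and leaves a beta-catenin that is not degraded. The 4HT was injected into young mice, weeks before the brains were taken for culture. By the paper, this procedure recombines most ECs but not all. The flex3 control mice carry the same unrecombined allele and also received 4HT. All cultures were selected with puromycin, and each pooled the brains of several mice, so that the replicates are wells and the p-values below measure the spread between wells. Within method A, genotype and strain differ together between WT and stabilized cultures and cannot be told apart. The acute libraries were sequenced as single-end reads and the cultures as paired-end reads, and culture and read type cannot be told apart either. The molecule entered for stabilized replicate 4 is not RNA, although it is titled and described as RNA-seq, and it was used as such. The ATAC-seq libraries comprised 2 of acute ECs, 6 of WT cultures (replicates 1 and 2 by method A) and 2 of stabilized cultures, both by method B.

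Tip cells are the migrating ECs at the front of a growing vessel, where VEGF signaling is high and Notch signaling is low. They are known for secreting apelin (Apln), the proteoglycan endocan (Esm1) and adrenomedullin (Adm), and for carrying the chemokine receptor Cxcr4. The ECs of the mature brain are quiescent and tightly sealed. Plvap, the protein of the diaphragms that span fenestrae and caveolae, is kept low in them by beta-catenin signaling and is high in the fenestrated vessels of the circumventricular organs and the choroid plexus.

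The libraries held 24284843 to 94686456 estimated counts. TPM values as deposited (transcripts scaled to a common total) divide each count by transcript length and scale all transcripts of a library to the same sum. Short noncoding transcripts took unequal shares of that sum, so that protein-coding genes held 94.2% to 94.3% of TPM in WT replicates 3 and 4, which were sequenced with longer reads, 35.4% to 63.2% in the other cultures and 26.5% to 40.5% in the sorted cells. Values were therefore also given as TPM among protein-coding genes, called coding TPM here. Summed over 8 pan-EC markers, coding TPM ranged from 7988 to 8244 in the acute ECs, from 281 to 408 in the GFP-negative cells, from 3225 to 7468 in the WT cultures and from 4058 to 8373 in the stabilized cultures. The 6 pericyte markers summed to between 1248 and 1632 coding TPM in the acute ECs and to at most 30.7 in a culture, while the 5 erythrocyte markers summed to 16890 and 101400 in the acute ECs and to at most 2.45 in a culture. The part of carried-over pericyte and blood RNA in the acute levels was not tested.

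In GRCm38 the genes lie at chr8:71497765-71511752 (Plvap), chr13:113209659-113218098 (Esm1), chrX:48025146-48034853 (Apln), chr2:85136225-85139923 (Aplnr), chr1:128588199-128592293 (Cxcr4), chr7:110627661-110629820 (Adm), chr7:89507783-89527187 (Prss23) and chr9:44134469-44142727 (Mcam). Open chromatin at Esm1, Apln and Aplnr differed between acute ECs and cultures in the same direction as the transcripts described below. Of 37 open regions near the 8 genes, 2 were in all 6 WT cultures and no acute library, against 8.09% over the genome. Adm, Prss23, Mcam and Cxcr4, also higher in culture, had no such region. Sequences at some of these genes are shown first. Promoters are the 250 bases before the RefSeq start site (GRCm38.p6), read 5′ to 3′ on the gene's strand. Of the 8 genes 6 have an entry in the RefSeq promoter table used here, and Plvap and Aplnr do not. The promoters of Esm1 and Apln lie under peaks that each of the 6 WT cultures had and neither acute library had, and the promoter of Cxcr4 lies under a peak of all 10 libraries. Capitals mark matches, on either strand, to a LEF1 and TCF short core (CTTTGA) in Esm1 and to TATAAA in Cxcr4, where 2 overlapping matches start at 32 and 30 bases before the start site.
Esm1, chr13:113209409-113209658, plus strand: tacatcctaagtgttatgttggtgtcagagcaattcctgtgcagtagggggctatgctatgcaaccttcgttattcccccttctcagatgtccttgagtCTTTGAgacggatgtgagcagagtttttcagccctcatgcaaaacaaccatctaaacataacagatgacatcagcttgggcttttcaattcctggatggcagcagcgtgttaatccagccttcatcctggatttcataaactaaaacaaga
Apln, chrX:48034854-48035103, minus strand: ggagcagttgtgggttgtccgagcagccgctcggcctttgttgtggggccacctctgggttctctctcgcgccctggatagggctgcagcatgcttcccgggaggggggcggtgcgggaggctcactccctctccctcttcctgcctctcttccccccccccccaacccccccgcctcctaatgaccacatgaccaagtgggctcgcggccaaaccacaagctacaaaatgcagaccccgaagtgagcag
Cxcr4, chr1:128592300-128592549, minus strand: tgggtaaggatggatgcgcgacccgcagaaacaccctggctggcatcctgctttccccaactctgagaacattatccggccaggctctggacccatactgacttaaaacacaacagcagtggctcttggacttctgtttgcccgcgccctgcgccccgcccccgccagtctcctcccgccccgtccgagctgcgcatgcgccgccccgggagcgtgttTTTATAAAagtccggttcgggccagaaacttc
Searched in the same 250 bases were also the hypoxia response core ACGTG, the AP-1 motif TGANTCA, the TEAD motif GGAATG and the longer LEF1 and TCF core CTTTGAT, which contains CTTTGA. None of these was found in the 3 promoters shown, and Apln had no match to any motif. Of 32851 RefSeq promoters of this length, 13.8% held CTTTGA, 3.21% CTTTGAT, 12.4% TATAAA, 16.6% ACGTG, 6.75% TGANTCA and 12.6% GGAATG. In the other 3 genes with entries the only matches were to TGANTCA in 2 overlapping entries of Prss23, at the same site. A match is a description of the letters and not a bound site.

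Away from the promoters, 2 regions are shown as 200 bases of the plus strand around the peak summit (GRCm38.p6), chosen after their values were seen. The first lies between genes, upstream of Aplnr, and carried a peak in both acute libraries and in no culture. The second lies in an intron of Plvap and carried a peak in 5 of 6 WT cultures, both stabilized cultures and no acute library. Capitals mark CTTTGAT and CTTTGA on either strand in the Aplnr region, and TGANTCA (2 matches) and GGAATG (1 match, on the minus strand) in the Plvap region.
Aplnr upstream region, chr2:85131784-85131983: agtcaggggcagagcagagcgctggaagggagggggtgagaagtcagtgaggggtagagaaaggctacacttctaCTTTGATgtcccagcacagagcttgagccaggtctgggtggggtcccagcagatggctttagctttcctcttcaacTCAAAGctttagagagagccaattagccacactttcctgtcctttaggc
Plvap intron region, chr8:71505388-71505587: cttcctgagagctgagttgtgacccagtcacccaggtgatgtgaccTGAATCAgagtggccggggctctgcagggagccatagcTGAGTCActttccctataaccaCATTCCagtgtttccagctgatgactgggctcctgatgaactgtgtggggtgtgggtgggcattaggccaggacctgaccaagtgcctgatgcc
In windows of the same length at the summits of the acute library that gave the first summit (31646 peaks), 4.16% held CTTTGAT and 14.1% CTTTGA. At the summits of the WT culture that gave the second (84455 peaks), 28.9% held TGANTCA and 18.2% GGAATG. Of the other motifs searched, ACGTG had no match in either window.

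WT cultures were compared with acute ECs to ask how 8 days in culture affected these genes. Apln, Adm, Prss23, Mcam, Esm1 and Cxcr4 were higher in culture, Aplnr was lower, and Plvap gave no call. Calls required 3 things: an edgeR quasi-likelihood test adjusted to under 0.05, more than a 2-fold change, and no library of the higher group with less than 5 TPM. Thus 6 of the 8 genes were called higher and 1 lower, against 13.5% and 10.2% of the 13798 protein-coding genes tested (23.9% and 21.3% by adjusted p alone). The median log2 fold change of the 8 genes was 3.32, and that of all genes tested was 0.10. In bulk RNA, fewer cells that express a gene and less RNA per cell cannot be told apart.

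**Figure D1:**
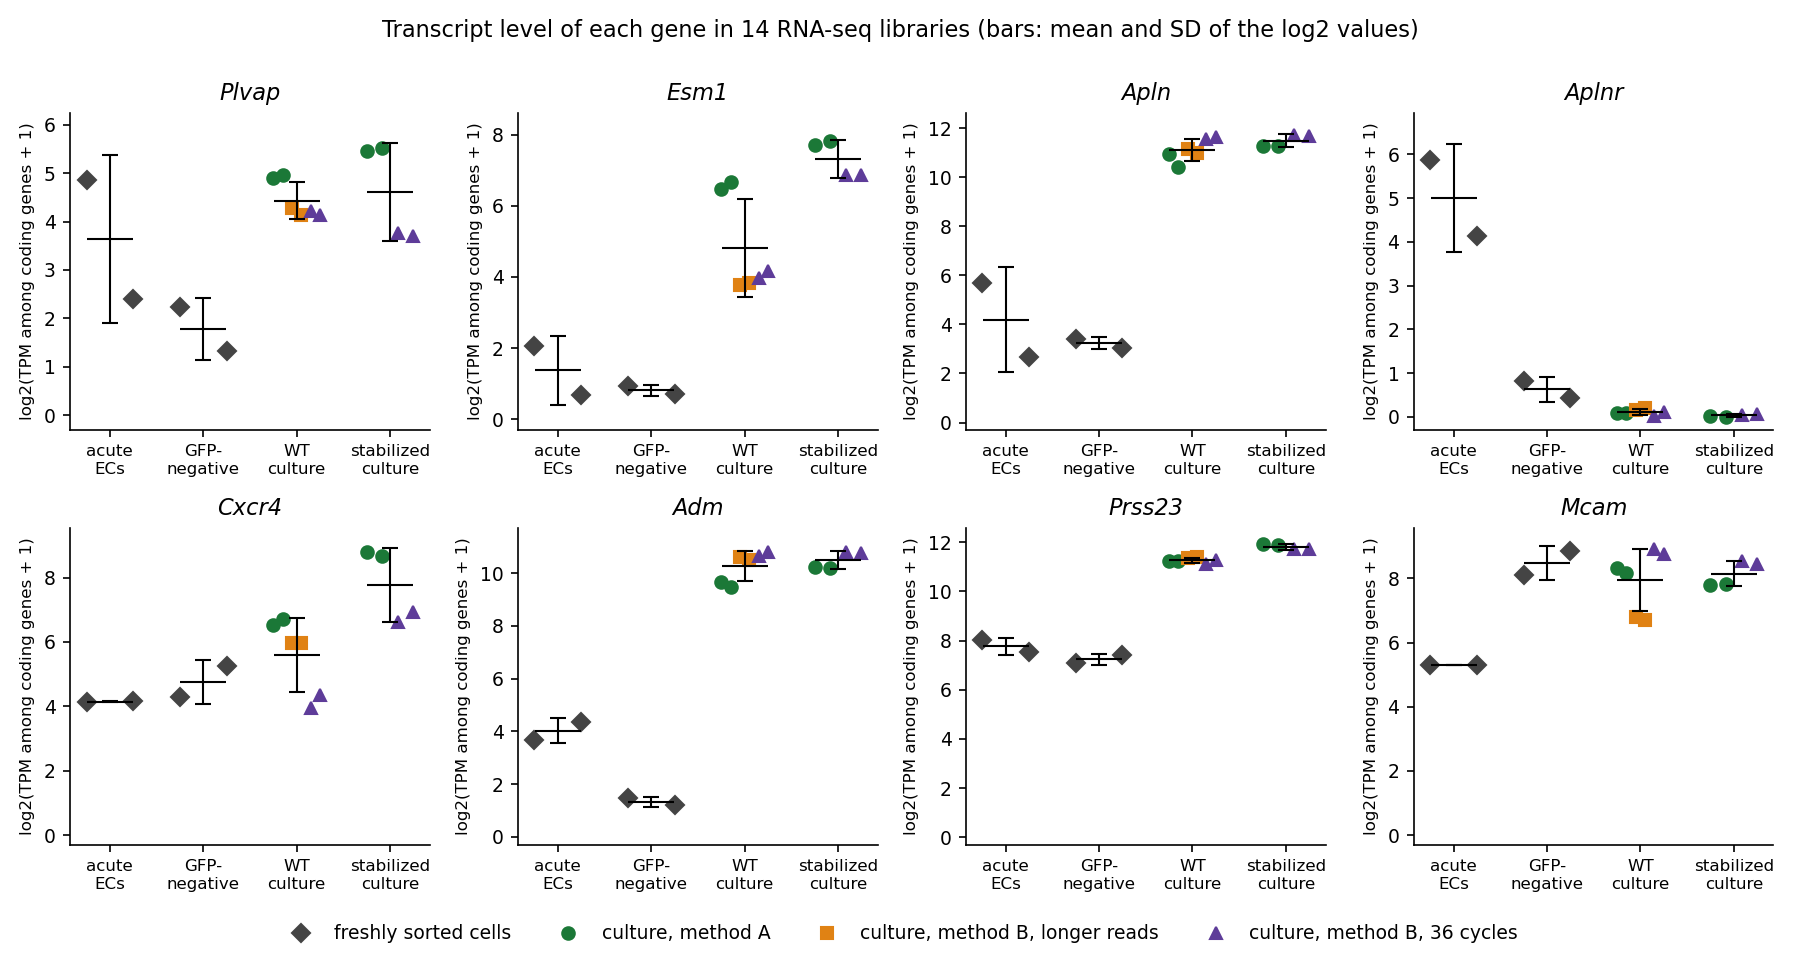
Level of each gene in every RNA-seq library, as log2 of coding TPM plus 1 on the vertical axis, by group. Points are libraries, coloured by isolation method and read length, with the mean and SD of each group. Apln, Adm, Prss23, Mcam and Esm1 lie higher in all 6 WT cultures than in both acute EC libraries, and Aplnr lies lower.

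The apelin ligand and its receptor changed in opposite directions. Apln encodes apelin, a secreted peptide that acts through the G protein-coupled receptor encoded by Aplnr. Apln stood at 16.5 and 2.18 TPM as deposited in the 2 acute libraries and at 632 to 2137 TPM (median 1302) in the 6 WT cultures. Every culture was far higher than either acute library, while the acute libraries themselves differed by more than 7-fold. The log2 fold change was 5.43 ± 1.07 (SE, adjusted p = 0.0038). Aplnr was at 18.7 and 6.72 TPM in the acute ECs and between 0.00588 and 0.148 TPM (median 0.0281) in the WT cultures. No culture came near the acute level, and the log2 fold change was -9.85 ± 0.73 (adjusted p = 5.56e-05). In estimated counts, Aplnr had 14899 and 2516 in the acute libraries and 1 to 12 in each WT culture. Over the group, 17415 acute counts made 144 CPM among protein-coding counts (95% Poisson interval 142 to 147), and 34 counts in the 6 WT cultures made 0.167 CPM (0.115 to 0.233), a ratio of 867 (620 to 1252). These intervals cover counting error only and not the spread between libraries.

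Adm and Esm1 encode secreted products. Adm, the precursor of the vasodilator peptide adrenomedullin, was at 3.85 and 7.85 TPM as deposited in the acute ECs and at 283 to 1468 TPM (median 703) in the WT cultures. The groups did not overlap, and the log2 fold change was 6.13 ± 0.66 (adjusted p = 0.000267). Esm1 encodes endocan, a proteoglycan secreted by ECs. Its acute levels were near the floor, at 1.02 and 0.25 TPM, from 201 and 24 counts. The WT cultures held 5.95 to 46.2 TPM (median 12.2), again with no overlap. Its log2 fold change of 4.31 ± 1.24 (adjusted p = 0.0201) was not called without acute replicate 2 (3.51, adjusted p = 0.111).

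Prss23 and Mcam encode a secreted serine protease and a cell adhesion molecule of ECs and mural cells (CD146). Prss23 was already the highest of the 8 genes in the acute ECs, at 83.1 and 74.2 TPM as deposited, and reached 851 to 2560 TPM (median 1083) in the WT cultures. The lowest culture was far higher than both acute libraries, and the log2 fold change was 3.95 ± 0.43 (adjusted p = 0.000277). Mcam was at 12.3 and 15.5 TPM in the acute ECs and at 98.3 to 193 TPM (median 122) in the WT cultures. The groups did not overlap, and the log2 fold change was 2.68 ± 0.72 (adjusted p = 0.0152). The call was lost when either acute library was left out (adjusted p = 0.0692 and 0.0979). Antisense genes overlap exons of Prss23 and of Mcam. By the paper, Salmon detected the library type automatically, and whether the type detected was stranded is not given in the sources used here.

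Cxcr4, the receptor of the chemokine Cxcl12, gave the weakest call. Its TPM as deposited was 5.39 and 6.83 in the acute ECs and 5.86 to 58.2 (median 40.1) in the WT cultures. WT replicate 5 lay between the 2 acute libraries and replicate 6, at 8.39 TPM, just higher, whereas the other 4 cultures were at 32.1 to 58.2 TPM. The log2 fold change was 2.34 ± 0.83 (adjusted p = 0.0447), and the call was lost in 11 of 22 alternatives. These were an offset for transcript length (1.75, adjusted p = 0.0808), limma on either TPM scale (adjusted p = 0.132 and 0.147), the cultures of 36 cycles alone, those of method B alone, and leaving out either acute library or any 1 of WT replicates 1 to 4. Plvap was at 9.04 and 1.75 TPM in the acute ECs and at 7.03 to 17.3 TPM (median 12.0) in the WT cultures. The acute libraries stood apart by more than the cultures did, and the groups overlapped. Its log2 fold change of 0.01 ± 0.64 (adjusted p = 0.993) became 2.02 and was called without acute replicate 1 (adjusted p = 0.0438), and was -0.83 without acute replicate 2 (adjusted p = 0.222). An average change in Plvap was therefore not resolved with these 2 acute libraries.

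Counted by overlap, Esm1, Apln, Adm, Prss23 and Mcam were higher in all 6 WT cultures than in both acute libraries on both TPM scales, and Aplnr was lower. Of 10607 protein-coding genes with a group mean of at least 5 TPM, 31.9% were higher in all 6 in this way as deposited and 27.9% in coding TPM, and 17.2% and 26.7% were lower.

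**Figure D2:**
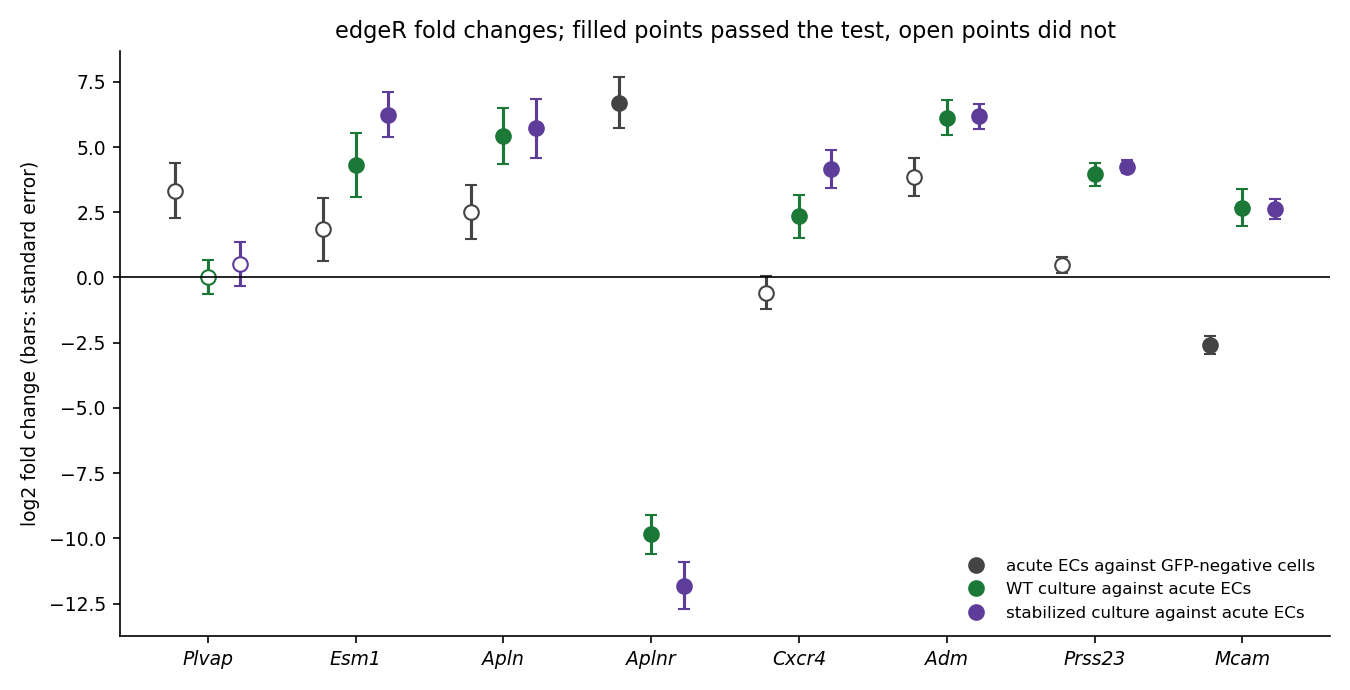
Log2 fold change of each gene (vertical axis) with its standard error from edgeR, for acute ECs against GFP-negative cells, WT cultures against acute ECs and stabilized cultures against acute ECs. Filled points passed the test. Adm has the largest called increase in WT culture (6.13) and Aplnr the only called decrease (-9.85).

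Ordered by coding TPM, the acute ECs held Prss23 first, at a median of 220.0, then Mcam (38.2), Aplnr (37.3), Apln (28.2), Cxcr4 (16.8), Plvap (16.2), Adm (15.6) and last Esm1 (1.88). From Mcam to Adm each gene overlapped the next in the order. Aplnr and Apln, with the widest spread, overlapped most of this group, whereas Mcam lay higher than Cxcr4, Plvap and Adm in both libraries. In the WT cultures the order was Prss23 (median 2446), Apln (2152), Adm (1494), Mcam (302), Cxcr4 (61.6), Plvap (18.0), Esm1 (15.9) and Aplnr (0.065). Neighbours overlapped in this order except at 2 places: Adm did not overlap Mcam, and Esm1 did not overlap Aplnr. Prss23, Apln and Adm thus stood clear of the other 5 genes, and Aplnr stood last.

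Shares of transcripts could be compared between groups only for genes with more than 1 listed transcript. Plvap, Esm1 and Apln had 1 each, so that their share was fixed beforehand. Aplnr was assigned to Aplnr-201 in every group, and Adm-201 took at least 99.4% of the Adm counts. Prss23-204 took 72.7% of the estimated Prss23 counts in acute ECs and 77.3% in WT cultures, with Prss23-201 at 7.65% and 15.4%. For Mcam the transcript Mcam-201 took 21.1% of the estimated counts in acute ECs and 79.0% in WT cultures, with Mcam-202 at 78.8% and 19.1%. For Cxcr4 the share of Cxcr4-201 was 39.4% in acute ECs and 86.5% in WT cultures. The read types differ between these groups, and no test of the split was made.

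Genes of the same pathways were read alongside, from lists that were chosen with results of these data known. Among ligand and receptor partners, 0 of 6 tested were called higher in WT culture and 1 lower, with a median log2 fold change of -0.56. The lower one was Cxcl12, the ligand of Cxcr4, at 1269 to 1507 coding TPM in acute ECs and 295 to 682 in WT cultures (-2.47 ± 0.44, adjusted p = 0.00233). The adrenomedullin receptor is built from Calcrl with Ramp2 or Ramp3. Ramp2 ranged from 694 to 924 coding TPM in acute ECs and from 41.8 to 321 in WT cultures, and it was not called there. Ramp3 went the other way, from 3.33 and 4.06 to 7.08 to 34.0, and was not called either. Calcrl overlapped, at 91.0 and 201 in acute ECs and 58.3 to 114 in WT cultures. By adjusted p alone, 2 partners were higher in WT culture and 1 lower. Apela, the other known ligand of the apelin receptor, was at 0 in both acute libraries and at most at 0.135 coding TPM in a WT culture. Calcrl, Ramp2, Ramp3 and Apela here, and Axin2, Lef1 and Tcf7 within methods below, were named after their values were seen.

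Of 15 other tip cell genes, 6 were called higher and 0 lower, and their median was 2.06. Pgf, placental growth factor, rose from 1.75 and 3.72 coding TPM to 733 to 1793 (9.09 ± 0.85, adjusted p = 0.000142), and Marcksl1, a regulator of the actin cytoskeleton, rose by 6.02 ± 0.65 (adjusted p = 0.000274). Among 8 other genes of permeable and fenestrated vessels, 2 were called in each direction and the median was -0.11. Plpp1, a lipid phosphate phosphatase, rose (3.96 ± 0.66, adjusted p = 0.00173) as did Emcn, the sialoglycoprotein endomucin (2.83 ± 0.57, adjusted p = 0.00427). Rgcc, a cell cycle regulator, was lower (-3.27 ± 0.65, adjusted p = 0.0041) as was the phosphatase gene Plpp3 (-1.34 ± 0.31, adjusted p = 0.00733).

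VEGF and Notch genes were called in 1 direction. Of 8 VEGF ligands and receptors, 0 were called higher and 3 lower (median -1.51). Flt1 was at 2797 to 3642 coding TPM in acute ECs and 59.1 to 215 in WT cultures (-4.54 ± 0.58, adjusted p = 0.000562), and Kdr, the main VEGF signaling receptor of ECs, was lower by 3.50 on the log2 scale (-3.50 ± 0.47, adjusted p = 0.000675). Of 9 Notch components and targets, 0 were called higher and 3 lower (median -1.75), led by Lfng (-3.12 ± 0.32, adjusted p = 0.00021) and Notch1 (-1.84 ± 0.54, adjusted p = 0.0215). Some members of both lists had positive values that were not called. Nrp2 was at 26.0 and 39.7 coding TPM in acute ECs and 67.2 to 385 in WT cultures (1.80 ± 0.93, adjusted p = 0.143). The Notch target Nrarp had 1.46 ± 0.92 (adjusted p = 0.222). Vegfa was at 0.0278 and 1.14 coding TPM in acute ECs and 7.68 to 20.5 in WT cultures. Its lowest TPM as deposited in a WT culture, 2.72, was under the minimum. These genes were named after their values were seen. By adjusted p alone, 1 VEGF gene was higher and 4 lower, and 0 Notch genes were higher and 4 lower. Hypoxia-inducible genes went both ways, with 4 of 11 called higher and 3 lower (median 0.91). Egln3, a prolyl hydroxylase (5.55 ± 1.35, adjusted p = 0.00994), and the mitophagy gene Bnip3 (2.67 ± 0.44, adjusted p = 0.00162) rose, while Ddit4 (-3.13 ± 0.34, adjusted p = 0.000277) and the glucose transporter gene Slc2a1 (-2.07 ± 0.36, adjusted p = 0.0021) were lower. All 6 targets of beta-catenin were called lower (median -6.01), with Notum at -8.98 ± 0.83 (adjusted p = 0.000135) and Axin2 at -8.29 ± 0.70 (adjusted p = 9.75e-05).

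Several cell type markers moved with the culture groups. The 5 proliferation markers summed to 1.9 to 11.2 coding TPM in acute ECs, 27.3 to 161 in WT cultures and 59.1 to 144 in stabilized cultures. The 4 smooth muscle markers, which cultured ECs can also express, summed to 529 and 723 in acute ECs and to 1095 to 7594 in WT cultures, and 3 of the 4 were called higher, while Myh11, the most specific of them, was at 0.533 to 7.75 in WT cultures and 48.6 to 77.4 in acute ECs. Fibroblast markers stayed at 11.7 to 36.5 summed coding TPM in WT cultures and 19.7 to 38.6 in acute ECs, microglia markers at no more than 4.98 and 9.06, and choroid plexus markers at 14.8 to 106 and 7.22 to 57.7. Neuron, astrocyte and oligodendrocyte markers summed to at most 31.1, 4.15 and 1.79 in a WT culture and to at most 9.55, 24.6 and 87.6 in acute ECs. Single genes made up some of these sums. In WT cultures the choroid plexus marker Clic6 was at 14.5 to 106, and Ttr, Kl and Folr1 were each under 1 coding TPM. In acute ECs Ttr was at 6.35 and 56.1. Of the neuron markers Tubb3 reached 30.9 in a WT culture, and Snap25, Rbfox3 and Syt1 were under 1. The part of these in the values of the 8 genes was not tested.

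The GFP-negative cells show how far each gene marked ECs in the intact brain. Aplnr was called higher in acute ECs and Mcam lower, so that 1 of the 8 was called in each direction, against 8.28% and 7.55% of 15116 genes (9.9% and 19.7% by adjusted p alone). The median log2 fold change was 2.17 for the 8 genes and -0.06 for all genes. Aplnr stood at 18.7 and 6.72 TPM as deposited in acute ECs and 0.203 and 0.122 in GFP-negative cells (6.70 ± 0.97, adjusted p = 0.00573). Mcam stood at 12.3 and 15.5 TPM in acute ECs and 72.8 and 162 in GFP-negative cells (-2.59 ± 0.34, adjusted p = 0.00432). Neither gene overlapped between the groups. Beside Mcam, the smooth muscle markers summed to 13540 and 14860 coding TPM in the GFP-negative cells, and their part in its level was not tested. Adm also passed on p and fold (3.85 ± 0.72, adjusted p = 0.0124), but its 3.85 TPM as deposited in acute replicate 1 was under the minimum of 5 TPM. In coding TPM Adm was at 11.9 and 19.4 in acute ECs and at 1.3 and 1.74 in GFP-negative cells, with no overlap. Plvap (0.985 and 0.537 TPM in GFP-negative cells, 3.33 ± 1.07, adjusted p = 0.0623), Apln (2.52 and 2.58 TPM, 2.51 ± 1.05, adjusted p = 0.127) and Esm1 (0.237 and 0.219 TPM, 1.84 ± 1.22, adjusted p = 0.312) were not called. Cxcr4 at 4.88 and 13.0 TPM in GFP-negative cells (-0.58 ± 0.64, adjusted p = 0.542) and Prss23 at 35.6 and 59.6 TPM (0.48 ± 0.31, adjusted p = 0.291) were close in both cell fractions.

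The acute EC libraries differed from each other at these genes. Apln, Plvap, Esm1 and Aplnr were higher in acute replicate 1 than in replicate 2 on both TPM scales, Adm was lower, and Prss23, Mcam and Cxcr4 were near each other. Without acute replicate 1 the differences of Apln and Esm1 from the GFP-negative cells were -0.30 (adjusted p = 0.76) and -0.18 (adjusted p = 0.951), and without acute replicate 2 4 genes were called in place of 2. The erythrocyte markers were the higher ones in acute replicate 2, at 101400 coding TPM against 16890.

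Between acute ECs and GFP-negative cells, partners of these genes were called in 1 direction and other tip cell genes in both. Of 6 ligand and receptor partners 3 were called higher in acute ECs and 0 lower (median 1.27), led by Cxcl12 (6.54 ± 0.51, adjusted p = 0.00173) and Ramp2 (4.94 ± 0.45, adjusted p = 0.00189). Of 15 other tip cell genes 6 were higher and 2 lower (median 2.61), with Robo4, a guidance receptor of ECs (8.87 ± 0.86, adjusted p = 0.00214), and the Notch ligand gene Dll4 (7.10 ± 0.84, adjusted p = 0.00337) against Marcksl1 (-4.94 ± 0.70, adjusted p = 0.00547) and Pgf (-3.17 ± 0.71, adjusted p = 0.0217). Marcksl1 and Pgf are also the 2 that rose most in culture. Of the 8 permeable vessel genes, 2 were called higher (Emcn, 5.94 ± 0.39, adjusted p = 0.00166, and Rgcc, 3.58 ± 0.64, adjusted p = 0.0109) and 1 lower (Plpp3, -4.67 ± 0.51, adjusted p = 0.0027), with a median of 2.62. For the VEGF list 4 of 8 were higher and 2 lower (median 1.88), with Flt1 at 8.18 ± 0.49 (adjusted p = 0.00166), Kdr at 6.39 ± 0.97 (adjusted p = 0.00671), Vegfa at -5.33 ± 1.5 (adjusted p = 0.042) and Vegfb at -2.58 ± 0.69 (adjusted p = 0.0363). For the Notch list 4 of 9 were higher and 1 lower (median 1.21), with Notch4 at 6.45 ± 0.56 (adjusted p = 0.00179), Jag2 at 5.30 ± 0.47 (adjusted p = 0.00183) and Hey2 at -2.01 ± 0.43 (adjusted p = 0.0182). Hypoxia-inducible genes had 2 of 10 higher and 0 lower (median 0.84), namely Slc2a1 (5.37 ± 0.41, adjusted p = 0.00166) and Ndrg1 (2.03 ± 0.38, adjusted p = 0.0123), and beta-catenin targets had 5 of 6 higher and 0 lower (median 4.37), led by Notum (5.64 ± 0.84, adjusted p = 0.00635) and Lef1 (5.63 ± 0.62, adjusted p = 0.0027). All 8 pan-EC markers were called higher, and all 4 smooth muscle markers lower.

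The WT cultures were not uniform, and the genes grouped by experiment. Esm1, Cxcr4, Mcam, Adm and Plvap were called different among the 3 experiments, 5 of 7 genes tested against 35.7% of 13063 genes, with the range of the experiment means over 2-fold. At the adjusted p alone 89.8% of genes passed. On simulated data this test called more unchanged genes than its threshold allows, so that its p-values are too small. Esm1 had coding TPM of 88.1 and 101 in experiment 1 (method A), 12.7 and 13.3 in experiment 2 and 14.8 and 16.9 in experiment 3, a log2 range of 2.41 in edgeR (adjusted p = 8.3e-09). The method A wells stood apart from all 4 method B wells. Cxcr4 had 90.6 and 105 in experiment 1, 61.7 and 61.5 in experiment 2 and 14.6 and 19.5 in experiment 3, a range of 2.48 (adjusted p = 8e-08). For Cxcr4 experiment 3 was the low one, and its values bracket the acute level of 16.7 and 16.8.

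Mcam was highest in experiment 3, where Cxcr4 was lowest. Its coding TPM was 319 and 284 in experiment 1, 110 and 104 in experiment 2 and 480 and 433 in experiment 3, a log2 range of 2.01 (adjusted p = 6.35e-08). The smooth muscle markers summed to 1585 and 1095 coding TPM in experiment 1, 2309 and 2148 in experiment 2 and 7594 and 7120 in experiment 3, highest where Mcam was highest, and their part in Mcam was not tested. Adm had 801 and 712 in experiment 1 and 1433 to 1772 in the other wells (range 1.16, adjusted p = 1.01e-05). Plvap had 28.9 and 29.9 in experiment 1 and 16.5 to 18.4 in the other wells (range 1.15, adjusted p = 6.75e-06). Apln, at 1381 to 3206 (range 0.98, adjusted p = 0.000722), and Prss23, at 2238 to 2718 (range 0.58, adjusted p = 0.00058), were not called, and Prss23 had the smallest range of the 7. Between single wells Apln spanned more than 2-fold, and it was called in 4 of the alternatives, such as without WT replicate 1 (range 1.32). With a replicate left out, 4 to 6 of the 7 genes were called, and Adm was not called without WT replicate 2 (range 0.99). Aplnr had too few counts to be tested. Method and strain change together between experiment 1 and the others and cannot be told apart, while experiments 2 and 3 are given as the same method and strain and differ in read length and facility. Of other tip cell genes 12 of 15 were called, Trp53i11 (range 5.21, adjusted p = 1.18e-09) and Unc5b (range 3.63, adjusted p = 1.31e-09) most. Of the other lists, 5 of 6 partners (Ackr3, range 3.77, adjusted p = 1.47e-09, and Ramp2, 2.65, adjusted p = 7.97e-09), 4 of 8 permeable vessel genes (Gpihbp1, 6.06, adjusted p = 4.5e-09, and Rgcc, 2.41, adjusted p = 2.75e-06), 7 of 8 VEGF genes, 6 of 9 Notch genes, 3 of 11 hypoxia genes and 2 of 5 beta-catenin targets were called.

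Stabilized cultures were compared with WT cultures to ask whether beta-catenin signaling changed the levels reached in culture. With all 10 cultures pooled, edgeR called none of the 7 genes tested, as it called 0% of the 12971 genes tested, and DESeq2 and limma also called none of the 7. At an unadjusted p under 0.05 there were 2 of the 7, Esm1 and Cxcr4, and 1422 of all genes. The pooled log2 fold changes were 1.90 ± 0.59 for Esm1 (adjusted p = 0.401), 1.76 ± 0.60 for Cxcr4 (adjusted p = 0.408), 0.48 ± 0.39 for Plvap, 0.26 ± 0.30 for Apln, 0.26 ± 0.21 for Prss23, 0.00 ± 0.33 for Adm and -0.07 ± 0.44 for Mcam. Their median was 0.26, and that of all genes was -0.07. Since the wells split by isolation method, the comparison was also made within each method among the wells sequenced with 36 cycles.

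Within each method, Esm1 and Cxcr4 were called higher in stabilized cultures and the other 5 genes were not. In method A 2 of 7 genes were called, against 5.39% of 12860 genes called higher and 0.933% lower, and in method B 2 of 7, against 1.08% and 0.288% of 12847. Esm1 had coding TPM of 88.1 and 101 in the WT wells of method A and 209 and 227 in the stabilized wells. In method B it had 14.8 and 16.9 in the WT wells and 115 and 116 in the stabilized wells. Every stabilized well was higher than every WT well of its method, by 1.10 ± 0.09 on the log2 scale in method A (adjusted p = 0.000591) and 2.81 ± 0.08 in method B (adjusted p = 0.000128). Cxcr4 had 90.6 and 105 coding TPM in the WT wells of method A and 446 and 410 in the stabilized wells. In method B it had 14.6 and 19.5 in WT and 97.0 and 122 in stabilized wells. WT replicates 3 and 4, the longer-read wells of method B left out here, had 61.7 and 61.5 (12.7 and 13.3 for Esm1). The method B value of Cxcr4 thus rests on the lower of 2 WT experiments. Again the wells did not overlap within a method, and the log2 fold changes were 1.90 ± 0.10 (adjusted p = 0.000314) and 2.70 ± 0.18 (adjusted p = 0.00078). With isolation method as a term in 1 fit of these 8 wells, Esm1 (1.95, adjusted p = 0.0131) and Cxcr4 (2.30, adjusted p = 0.00204) were the 2 genes called. Each method is 1 WT and 1 stabilized experiment of 2 wells, so that stabilization cannot be told apart from the experiment.

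The other genes moved less than 2-fold. Plvap differed in direction, with 28.9 and 29.9 coding TPM in WT and 43.1 and 44.5 in stabilized wells of method A (0.58 ± 0.09, adjusted p = 0.00293), and 17.5 and 16.5 in WT and 12.6 and 12.0 in stabilized wells of method B (-0.45 ± 0.08, adjusted p = 0.00788). Prss23 was higher in stabilized wells of both methods, by 0.51 ± 0.09 (adjusted p = 0.00344) and 0.44 ± 0.07 (adjusted p = 0.00671), and Mcam lower, by -0.59 ± 0.09 (adjusted p = 0.00253) and -0.37 ± 0.07 (adjusted p = 0.0122). The fold minimum kept these from being called. Apln had 0.36 ± 0.19 (adjusted p = 0.149) and 0.09 ± 0.06 (adjusted p = 0.292), and Adm 0.39 ± 0.12 (adjusted p = 0.0284) and 0.05 ± 0.08 (adjusted p = 0.647).

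**Figure D3:**
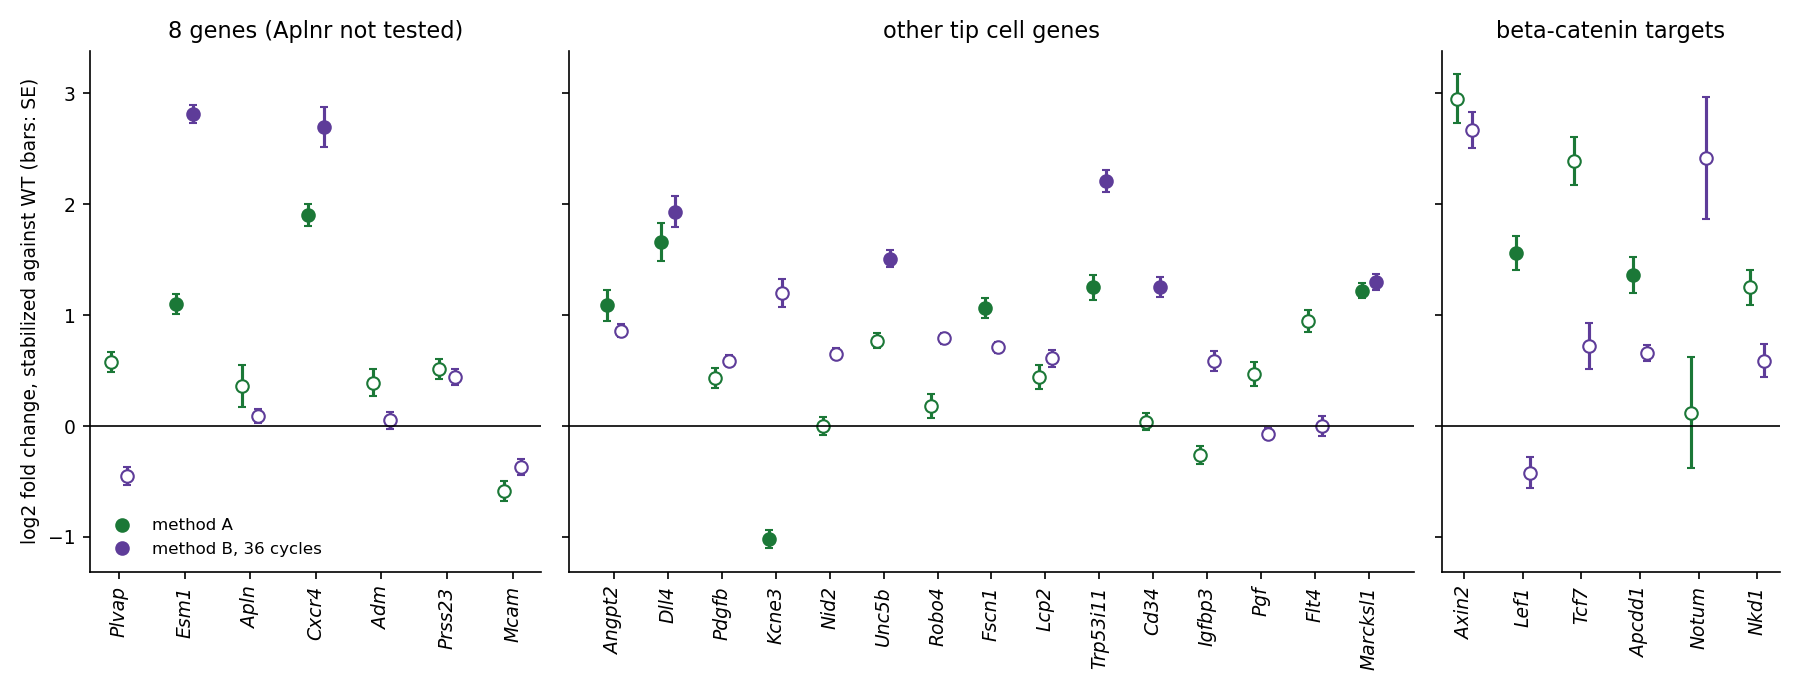
Log2 fold change of stabilized against WT cultures with its standard error (vertical axis), within method A and within method B, for the 7 genes tested, 15 other tip cell genes and 6 beta-catenin targets. Filled points passed the test. Esm1 and Cxcr4 are filled in both methods, and Plvap lies at 0.58 in method A and -0.45 in method B.

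The size of the difference between stabilized and WT wells was then compared between methods. Method and experiment cannot be told apart here, and the p-values measure the spread between wells. In a model of the 8 wells with an interaction term, the effect in method B minus that in method A was 1.74 ± 0.13 for Esm1 (adjusted p = 6.13e-05), -1.01 ± 0.12 for Plvap (adjusted p = 0.000385) and 0.82 ± 0.23 for Cxcr4 (adjusted p = 0.0164). The 3 genes passed of 7 tested, against 49.5% of 13369 genes. Passing was thus common among all genes and not particular to these. The interaction of Cxcr4 was not called in 6 of 15 alternatives that kept its direction, among them an offset for transcript length (adjusted p = 0.0502) and leaving out WT replicate 2 or 5 or stabilized replicate 2 or 4, and with limma on TPM its sign turned (-0.31). By list, 10 of 15 other tip cell genes passed, with Kcne3 (2.24 ± 0.15, adjusted p = 4.64e-05) and Cd34 (1.22 ± 0.13, adjusted p = 0.000236) the highest. Of beta-catenin targets 5 of 6 passed, with Notum at 2.31 ± 0.79 (adjusted p = 0.0377), Lef1 at -1.95 ± 0.22 (adjusted p = 0.000277) and Tcf7 at -1.65 ± 0.33 (adjusted p = 0.00364). Of Notch genes 8 of 9 passed, with Hey1 at 1.56 ± 0.20 (adjusted p = 0.000436) and Notch4 at -1.03 ± 0.14 (adjusted p = 0.00063). Of permeable vessel genes 5 of 8 passed, with Cd300lg at 6.98 ± 1.58 (adjusted p = 0.00791) and Gpihbp1 at 3.73 ± 0.34 (adjusted p = 0.000134), and of partners 4 of 7, with Ramp1 at 2.14 ± 0.58 (adjusted p = 0.0144) and Ackr3 at -0.50 ± 0.15 (adjusted p = 0.0239). Cd300lg was near the floor, at 0 to 1.21 coding TPM in WT and 0.0146 to 0.212 in stabilized cultures. It had too few counts to be tested within method B. Notum (at most 0.371 and 0.494) and Ramp1 (at most 2.98 and 2.77) were also low in WT and stabilized cultures.

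Other tip cell genes also differed within methods. In method A 5 of 15 were called higher and 1 lower in stabilized cultures (median 0.47, all genes 0.01), and in method B 5 higher and 0 lower (median 0.79, all genes -0.01). Dll4 (1.66 ± 0.17, adjusted p = 0.000877, and 1.93 ± 0.14, adjusted p = 0.000797), Trp53i11 (1.25 ± 0.11, adjusted p = 0.000678, and 2.21 ± 0.10, adjusted p = 0.000429) and Marcksl1 (1.22 ± 0.07, adjusted p = 0.000381, and 1.30 ± 0.07, adjusted p = 0.00049) were called in both. Kcne3 was called lower in method A (-1.02 ± 0.08, adjusted p = 0.000629). Ackr3, the scavenger receptor of Cxcl12, was called in both (2.08 ± 0.08, adjusted p = 0.00011, and 1.56 ± 0.12, adjusted p = 9e-04) and was the 1 of 6 and 1 of 7 partners called. Of the 6 beta-catenin targets, 2 were called higher in method A (median 1.46) and 0 in method B (median 0.69), and all but Lef1 in method B had values over 0. Lef1 was at 1.56 ± 0.15 (adjusted p = 0.000739) in method A and -0.42 ± 0.14 (adjusted p = 0.057) in method B. Tcf7 was at 2.39 ± 0.22 (adjusted p = 0.000724) in method A, under the TPM minimum, and 0.72 ± 0.21 (adjusted p = 0.0399) in method B. Axin2 passed on p and fold in both (2.95 ± 0.22, adjusted p = 0.000542, and 2.67 ± 0.16, adjusted p = 0.000664), at 2.48 to 3.1 coding TPM in stabilized cultures, 0.223 to 0.606 in WT cultures and 116 to 161 in acute ECs. Markers moved as well. In method B the 5 proliferation markers had a median of 1.35 with Top2a and Cdk1 called higher, and the 8 pan-EC markers a median of 0.50 with Cldn5 called higher. In method A these medians were -0.13 and 0.20, Cdh5 was called higher (1.35 ± 0.11, adjusted p = 0.000629) and the smooth muscle marker Cnn1 lower (-1.08 ± 0.21, adjusted p = 0.00542). Their part in the values of Esm1 and Cxcr4 was not tested.

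Against acute ECs, the stabilized cultures had 6 of the 8 genes called higher and 1 lower, against 15% and 11% of 13904 genes (28.8% and 27.8% by adjusted p alone), with a median of 4.20 (all genes 0.04). This comparison shares its acute libraries with that of the WT cultures, so the values are given without a comparison between them. Esm1 had 42.6 to 143 TPM as deposited in the 4 stabilized cultures (125, 143, 45 and 42.6 in replicates 1 to 4), and its log2 fold change was 6.24 ± 0.86 (adjusted p = 0.00142). Cxcr4 had 267, 259, 38.1 and 44.9 TPM in the same order (4.15 ± 0.72, adjusted p = 0.00336). All 4 wells of each gene were higher than both acute libraries. Apln had 1213 to 1565 TPM (5.72 ± 1.13, adjusted p = 0.0055), Adm 635 to 737 (6.17 ± 0.49, adjusted p = 0.000222), Prss23 1236 to 2381 (4.25 ± 0.24, adjusted p = 8.54e-05) and Mcam 127 to 147 (2.63 ± 0.38, adjusted p = 0.00161). Aplnr had 8 counts over the 4 wells, or 0.0389 CPM among protein-coding counts (95% Poisson interval 0.0168 to 0.0767), an acute level 3710 times as high (1883 to 8593), with a log2 fold change of -11.81 ± 0.90 (adjusted p = 0.000202). Plvap had 4.44 to 28.1 TPM, overlapped the acute libraries and was not called (0.51 ± 0.84, adjusted p = 0.623).

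The lists in the stabilized cultures had the following counts against acute ECs. Tip cell genes had 7 of 15 higher and 0 lower (median 1.93), led by Pgf (8.85 ± 0.51, adjusted p = 8.91e-05) and Marcksl1 (7.08 ± 0.64, adjusted p = 0.000335). Permeable vessel genes had 2 of 8 higher and 1 lower (median 0.38), with Plpp1 at 3.05 ± 0.48 (adjusted p = 0.00232), Emcn at 2.66 ± 0.22 (adjusted p = 0.000278) and Rgcc at -4.62 ± 0.47 (adjusted p = 0.000485). Partners had 1 of 7 higher, Ramp3 (2.41 ± 0.54, adjusted p = 0.00936), and 3 lower, led by Ramp2 (-2.24 ± 0.50, adjusted p = 0.00906) and Cxcl12 (-2.03 ± 0.27, adjusted p = 0.00126), with a median of 0.08. VEGF genes had 1 of 8 higher, Vegfb (1.18 ± 0.37, adjusted p = 0.0306), and 3 lower, led by Flt1 (-3.66 ± 0.32, adjusted p = 0.000299) and Kdr (-3.22 ± 0.28, adjusted p = 0.000283), with a median of -1.89. Notch genes had 0 of 9 higher and 3 lower (median -1.09), with Lfng at -3.65 ± 0.28 (adjusted p = 0.000204) and Hey1 at -1.84 ± 0.62 (adjusted p = 0.0406). Hypoxia genes had 3 of 11 in each direction (median 0.52), with Egln3 at 5.74 ± 1.36 (adjusted p = 0.011) and Slc2a1 at -2.43 ± 0.33 (adjusted p = 0.00128), and all 6 beta-catenin targets were lower (median -5.05), with Notum at -7.85 ± 0.35 (adjusted p = 4.92e-05).

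Open chromatin was described from the peaks that the authors called in each library, joined across libraries where they overlapped. Within 5 kb of the 8 genes there were 37 open regions, and 7 of them were present in both acute libraries and all 6 WT cultures. In all 6 WT cultures and no acute library there were 2, against 8.09% of 126319 joined regions over the genome, and in an acute library and no WT culture there were 4, against 6.28%. The number of peaks per library ranged from 31844 to 98840 and was lowest in the acute libraries (37453 and 31844) and WT replicate 2 (33152), so that a missing peak can reflect a library with few peaks. No test was made on the presence of peaks.

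**Figure D4:**
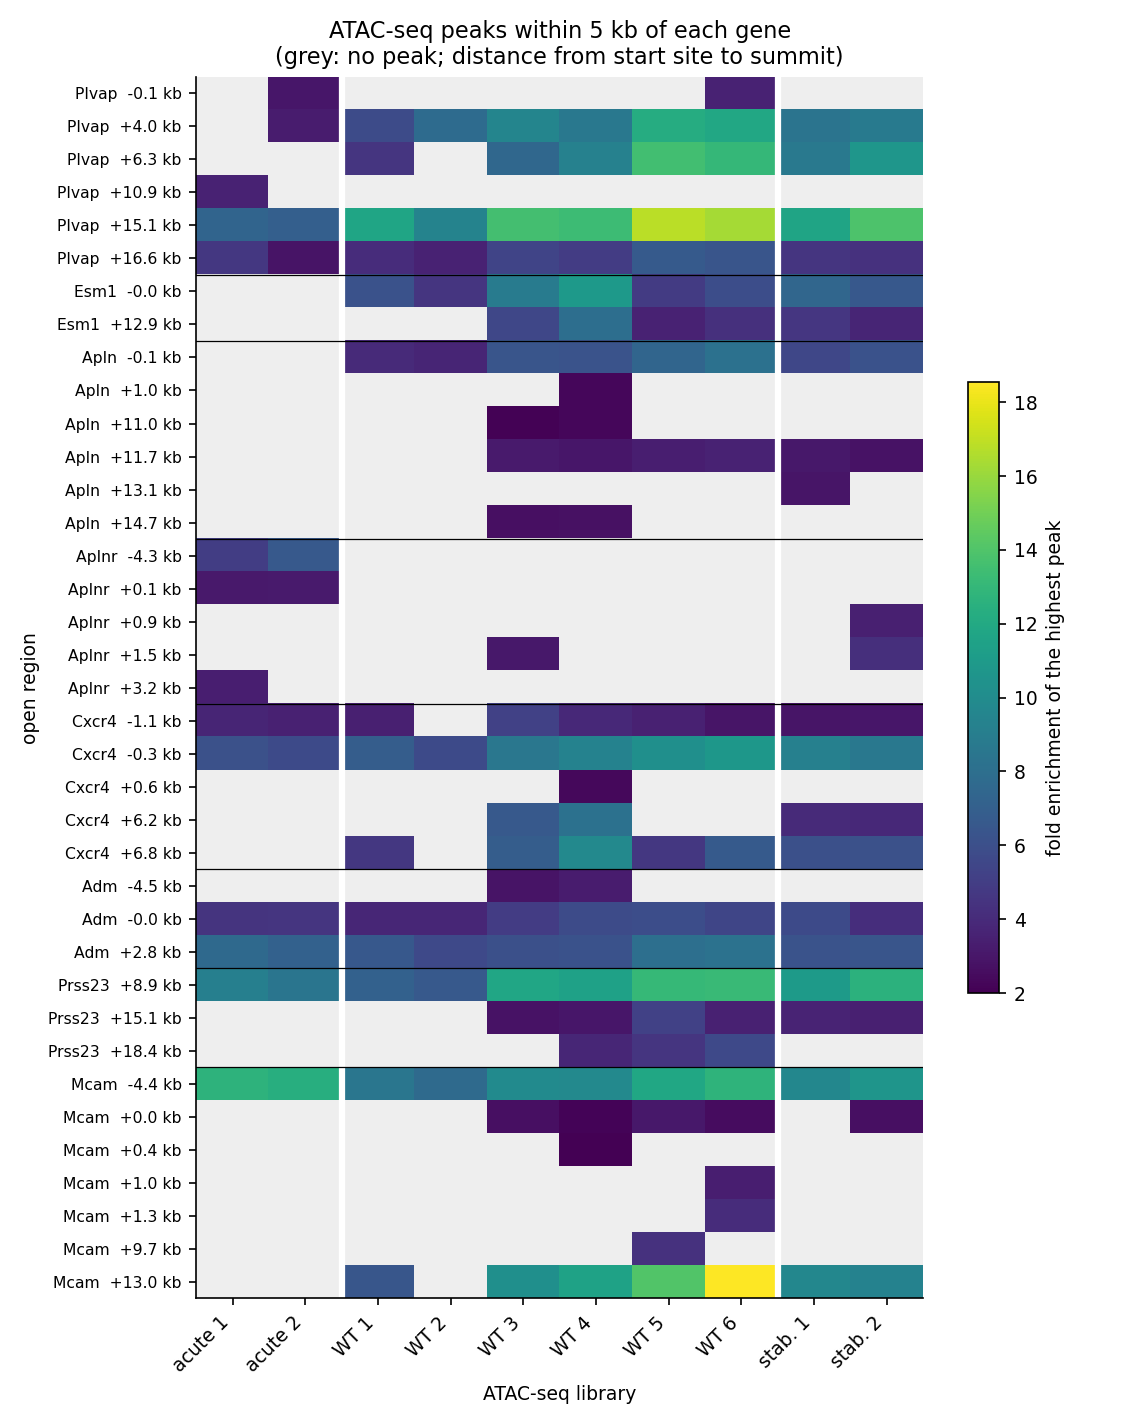
Fold enrichment of the highest ATAC-seq peak (colour) in each of 37 open regions near the 8 genes (rows, labelled by the distance of the summit from the gene's start site) in 10 libraries (columns). Grey marks no peak. The start regions of Esm1 and Apln are coloured in all cultures and grey in both acute libraries, and the upstream region of Aplnr is coloured in the acute libraries alone.

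Both regions found in all WT cultures and neither acute library lay at start sites. At Esm1, chr13:113209376-113210089 covers the start site, exonic sequence and the promoter printed above. Its fold enrichment was 6.17, 4.52, 8.91, 10.92, 4.87 and 5.89 in WT replicates 1 to 6 and 7.46 and 6.56 in the stabilized cultures. At Apln, chrX:48034181-48035209 had 3.97, 3.68, 6.34, 6.20, 7.39 and 8.16 in the WT cultures and 5.53 and 6.19 in the stabilized cultures. WT replicate 2 had both, with 33152 peaks in all against 37453 and 31844 in the acute libraries. The part of the low peak number in the missing acute peaks was not tested. A further region 12901 bases downstream of the Esm1 start, in an intron of the neighbouring gene Gzmk, was open in 4 WT and both stabilized cultures.

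At Aplnr the pattern was the reverse. The upstream region chr2:85131700-85132210, whose summit sequence is printed above, had a fold enrichment of 5.02 and 6.61 in the acute libraries, and chr2:85136126-85136453, over the start site and the 5′ untranslated part of the first exon, had 3.14 and 3.20. No culture had a peak in either. Stabilized replicate 2 had a separate peak inside the gene (3.48), and WT replicate 3 and stabilized replicate 2 shared another (3.06 and 4.23).

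For the remaining genes the start site did not separate the groups. Cxcr4 had a start region in all 10 libraries (chr1:128591834-128592823, 5.69 to 10.78), and a region 6793 bases downstream of its start (chr1:128585328-128585668) in 5 WT and both stabilized cultures (4.65 to 9.79) and in no acute library. Adm had its start region and one 2814 bases downstream in all 10, at 3.75 to 5.94 and 5.68 to 8.24. The most counted Prss23 transcript, Prss23-204, took 72.7% to 85.7% of the gene's estimated counts, and its start at chr7:89527187 had no peak in any library. The start of Prss23-201 and of 6 other transcripts lay in chr7:89517198-89518618, which was open in all 10 (6.64 to 13.22). Mcam had an upstream region in all 10 (chr9:44129440-44130584, 7.74 to 12.73), a weak start region in 4 WT and 1 stabilized culture (2.15 to 3.06), and a region over an exon of the neighbouring gene Cbl in 5 WT and both stabilized cultures (6.41 to 18.54).

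Plvap, whose transcript level overlapped between the groups, had culture peaks inside the gene. The intron region chr8:71505269-71505688 had 4.52, 7.5, 9.27, 13.55 and 13.01 in WT replicates 1 and 3 to 6, 8.71 and 10.68 in the stabilized cultures and no peak in acute ECs or WT replicate 2. The exonic region chr8:71507557-71508286 had a peak in all 8 cultures (5.78 to 12.22) and in acute replicate 2 alone of the acute libraries (3.28). The start region had a peak only in acute replicate 2 (3.02) and WT replicate 6 (3.57). Another intron region, chr8:71500715-71500976, had a peak in acute replicate 1 alone (3.6). The 2 regions beyond the 3′ end, in introns of Gtpbp3, were open in all 10 libraries.

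The genes whose levels ran closest to each member over the 14 libraries were found by Pearson's r on log2(TPM + 1) among 10607 genes. The libraries share experiments, read types and the noncoding share of TPM, and r is given as a description. The closest were Prnd for Apln (r = 0.993), Capza1 for Adm (0.994), Cst6 for Prss23 (0.991), Rasgrp4 for Aplnr (0.979), Bcr for Cxcr4 (0.972), Atxn3 for Plvap (0.971), Car5b for Esm1 (0.961) and Rap1gap2 for Mcam (0.954). In coding TPM the same pairs had r of 0.983, 0.905, 0.993, 0.982, 0.969, 0.829, 0.922 and 0.961. By TPM as deposited, the next closest were Emp1 and Rps26 for Apln, Anxa2 and Snrpf for Adm, and Rpl29 and Dram1 for Prss23. They were Gm10722 and Ccl21a for Aplnr, Abcg1 and Snn for Cxcr4, and Ass1 and Micall2 for Plvap. For Esm1 they were Hist1h2ag and Man2a1, and for Mcam Tnc and Selenoi. Among these named genes, the highest r in coding TPM was that of Emp1 for Apln (0.988) and Anxa2 for Adm (0.996). For Plvap it was that of Micall2 (0.931), and for Esm1 that of Hist1h2ag (0.952). For Prss23, Aplnr, Cxcr4 and Mcam the first named stayed highest. No ranking over all genes was made in coding TPM.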

How the data were processed

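RNA-seq comprised 14 libraries and ATAC-seq 10. The authors quantified reads with Salmon 0.14.0 on GENCODE M21 transcripts, and the deposited files give for each transcript an estimated count and a TPM. Peaks were called by the authors in each library with MACS2 2.1.2 after HISAT2 2.1.0 alignment to GRCm38. The deposited lists give a fold enrichment, a −log10 p, a −log10 q and a score. Peaks under the authors' later filter are still listed.

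Counts and TPM were summed per gene, counts were rounded, and protein-coding genes kept by filterByExpr entered edgeR's quasi-likelihood test (edgeR 4.0.16, R 4.3.3) after TMM normalization, with Benjamini-Hochberg adjustment over all genes tested. Calls were made at 0.05, with a log2 change beyond 1 in size and a minimum of 5 TPM throughout the higher group. The interaction needed only the adjusted p. Standard errors were derived from the fold change and the F statistic. Alternatives used DESeq2 1.42.0, limma 3.58.1 on log2(TPM + 1), other scalings and filters, other sets of libraries and leaving out each replicate. Coding TPM was added after seeing the data. The procedure was tested on simulated data, where the test among WT experiments called more unchanged genes than its threshold allows. All 8 members were named, with up to 2 called genes per list, direction and comparison (fewer for the experiments and the interaction). The members and lists were chosen with earlier results of these data known. At these depths the spread between libraries, not counting error, limits the precision. The sources used here do not say that shared replicate numbers pair the samples, and no block was used in the main tests. Samples of cerebrum alone were not analysed here.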

Additional observations from a re-analysis of the deposited data

Results flagged for a closer look

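The gap between stabilized and WT wells differed between isolation methods, by the interaction test over the 8 wells of 36 cycles, for 3 of the 7 genes tested. The difference, method B minus method A on the log2 scale, was 1.74 for Esm1, higher in stabilized wells of both methods but more so in method B. It was 0.82 for Cxcr4, also higher in both, though that call was lost in 6 of 15 alternatives and the sign turned in 1 more. It was -1.01 for Plvap, which was higher in stabilized wells of method A and lower in those of method B. Among all genes tested 49.5% passed the same test, so that passing it was not particular to these genes. Method, strain of the WT mice and experiment cannot be told apart here. No culture library stood apart from its own group by Dixon's criterion in any of the 32 groups of values tested. The acute and GFP-negative groups, with 2 libraries each, were too small for it. It looks for 1 library apart from the rest, so that 2 wells of an experiment deviating together would not be flagged.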

How the results depend on the processing

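Over single genes and comparisons 795 alternative values were computed, of which 724 kept direction and side of the threshold, 25 gained a call, 23 lost one and 23 changed sign. The 7 calls of stabilized cultures against acute ECs held under every alternative run. For WT cultures against acute ECs, 4 to 7 genes were called when a replicate was left out (4 without acute replicate 2), and Plvap, not called, was -0.08 with DESeq2 and -0.31 in method B cultures alone, and -0.83 to 2.02 with a replicate left out. For acute ECs against GFP-negative cells, 2 to 4 genes were called with a replicate left out (4 without acute replicate 2), with ranges of -0.18 to 2.62 for Esm1, -0.30 to 3.39 for Apln and -1.03 to 0.08 for Cxcr4. The all-gene split of that comparison, 1252 higher and 1142 lower, was 929 and 1419 with library size alone and 653 and 897 with a length offset. Library size alone moved the all-gene median to 0.30 for WT and 0.16 for stabilized cultures against acute ECs, and to -0.44 for acute ECs against GFP-negative cells.

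For stabilized against WT cultures, 0 genes became 2 in method A only, 2 in method B only and 2 with method as a term. Plvap was -0.45 in method B, and Mcam was 0.05 and 0.20 with limma on deposited and coding TPM, 0.52 with the replicate block and -0.24 to 0.12 with a replicate left out. The labels tie no replicate number to shared animals, and deviations of same-numbered wells correlated at 0.466 and 0.461 for numbers 1 and 2, which are method A in both groups, but at -0.011 and 0.043 for 3 and 4. With the replicate block, 7 genes were called in WT against acute ECs, 2 in acute ECs against GFP-negative cells (median of the 8 genes 1.48, against 2.17 without the block), 0 in stabilized against WT cultures and 7 in stabilized cultures against acute ECs, while all-gene calls in stabilized against WT cultures went from 0 to 138 higher and 44 lower (15 and 3 with DESeq2, 68 and 10 with method as a term). Plvap in stabilized cultures against acute ECs was -0.27 to 2.54 with a replicate left out.

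Among the WT experiments, 4 to 6 genes were called with a replicate left out. For the interaction, 6 genes were called with limma and 2 to 5 with a replicate left out (5 without WT replicate 1). Cxcr4 was -0.31 and Mcam -0.65 with limma on TPM, Prss23 0.05 with library size alone and -0.17 to 0.02 with a replicate left out, and Apln -0.59 to 0.01. Of the open regions, those in all 6 WT cultures and no acute library numbered 1 with stricter peaks, 5 in a 20 kb window and 2 to 5 with a library left out (5 without WT replicate 2). Those in an acute library and no WT culture numbered 1 with stricter peaks and 2 to 5 with a library left out (2 without acute replicate 1). The cause of these shifts was not tested. Only 2 acute libraries and 2 or 3 culture experiments limit every comparison.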
